A study of Mus musculus with 8 samples.

Results

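Neurexins, neuroligins and leucine-rich repeat transmembrane proteins (LRRTMs) are cell adhesion proteins that hold the 2 sides of a synapse together, and SMC1 binding was examined at 9 of their genes: Nrxn2, Nrxn3, Nlgn1, Nlgn2, Nlgn3, Lrrtm1, Lrrtm2, Lrrtm3 and Lrrtm4. The genes were chosen by name out of 21887 protein-coding genes with a position on GRCm38, and every listed peak inside a gene body or within 50 kb of it was taken. That gave 15 of the 12359 peaks of resting neurons and 0 of the 1684 peaks of NMDA-treated neurons. The study mapped SMC1, a subunit of the cohesin ring, by ChIP-seq in wild-type cortical neurons from day 16 embryos of Swiss-Webster mice, kept in culture for 13 days. Resting cultures received no treatment. NMDA cultures had a 10 min bath of NMDA at 50 µM, then 50 min of recovery without the drug. For each condition there were 2 ChIP replicates, labelled biological with no word on litters, 2 input samples, and 1 deposited list that combines the ChIP replicates. The growth protocol also describes etoposide, which the treatment label of no sample names. The cultures were profiled in bulk, so a site bound in few cells and a site bound weakly in many cannot be told apart.

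Neurexins sit on the axon side and reach across the cleft to neuroligins and LRRTMs on the receiving side. Nlgn1 is known from excitatory synapses, Nlgn2 from inhibitory synapses and Nlgn3 from both, and LRRTMs from excitatory synapses. Neurexin genes are known to make long alpha and short beta forms from an upstream and an internal promoter, and some of these genes are among the longest in the genome. Cohesin folds DNA into loops, CTCF is a known barrier to it, and its sites can lie at promoters, at enhancers or far from both.

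The resting peaks were few and unevenly spread over the family. Nrxn3 had 5, Nlgn1 4, Nlgn2 and Nlgn3 2 each, and Lrrtm1 and Lrrtm4 1 each. Nrxn2, Lrrtm2 and Lrrtm3 had none. Of the 15 peaks, 10 lay inside a gene body and 5 in a flank. A resting peak was thus present at 6 of 9 members (66.7%, exact Clopper-Pearson 95% interval 29.9 to 92.5%), against 62.4% of all protein-coding genes within the same 50 kb. An NMDA peak was present at 0 of 9 (interval 0 to 33.6%), against 16.9% of all protein-coding genes. Both counts have intervals that include the share over all genes. With flanks of 10 kb the members with a resting peak were 5 of 9 (38.2% of all genes) and those with an NMDA peak 0 (8.94%), and in the body alone 4 (25.4%) and 0 (6.57%).

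**Figure D1:**
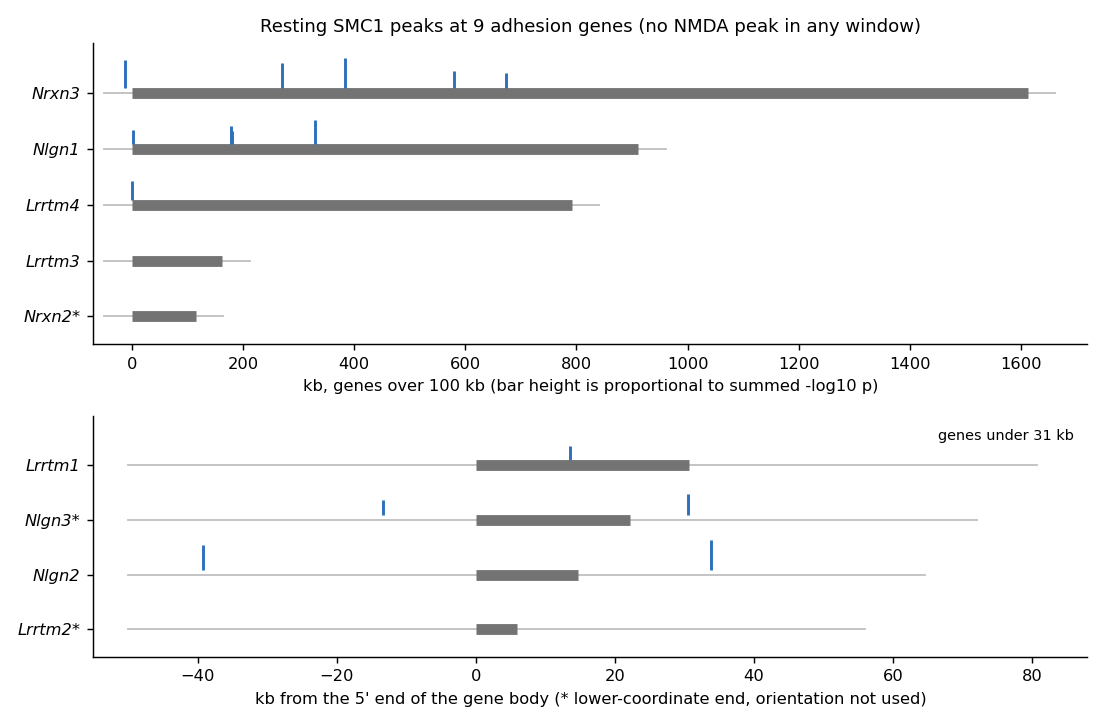
Each row is a gene body (thick bar) with its 50 kb flanks (thin line), in kb from the 5′ end or, for the genes with an asterisk, from the lower-coordinate end. Blue bars are the 15 resting peaks, with a height proportional to the summed −log10 p, and those inside Nrxn3, Nlgn1 and Lrrtm4 lie toward the 5′ end.

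Several of the peaks sat on promoters, so the promoter sequences are shown first. The RefSeq promoter table (GRCm38.p6) held 10 start sites for 6 members, namely Nrxn3, Nlgn1, Nlgn2, Lrrtm1, Lrrtm3 and Lrrtm4. Windows of 250 bases before and 30 after each start were used. A start in this table need not be the 5′ end of the gene body, and starts outside the table were not considered. A resting peak overlapped 4 of the 10 windows, 2 at Nlgn1 and 2 at Lrrtm4, and an NMDA peak none. The shares over the 21263 windows of all protein-coding genes were 11.8% and 4.71%. The same peak overlapped both Lrrtm4 windows, and the 4 windows belong to 2 of the 6 members. In 3 of the 4 windows some bases lay within the peak as called in both replicates, and these bases are in capitals. The first 3 sequences are those windows, the fourth is the window that ends 30 bp short of the Lrrtm1 peak, and the fifth is the most internal Nrxn3 start, which had no peak near it. All are written 5′ to 3′ on the strand of the gene.
Nlgn1 upstream start, chr3:26331880-26332159, minus strand: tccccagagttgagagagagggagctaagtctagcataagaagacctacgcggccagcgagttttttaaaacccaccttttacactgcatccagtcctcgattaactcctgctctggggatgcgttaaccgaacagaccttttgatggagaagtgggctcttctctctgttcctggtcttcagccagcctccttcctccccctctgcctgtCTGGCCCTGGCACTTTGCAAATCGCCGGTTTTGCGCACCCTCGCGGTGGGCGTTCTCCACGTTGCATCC
Nlgn1 internal start, chr3:26153957-26154236, minus strand: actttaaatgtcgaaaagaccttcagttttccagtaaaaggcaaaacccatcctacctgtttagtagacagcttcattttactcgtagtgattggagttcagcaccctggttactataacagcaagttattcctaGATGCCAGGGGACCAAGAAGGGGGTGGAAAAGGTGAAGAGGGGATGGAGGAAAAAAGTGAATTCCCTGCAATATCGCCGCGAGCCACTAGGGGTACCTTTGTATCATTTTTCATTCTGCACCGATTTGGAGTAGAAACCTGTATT
Lrrtm4 first start, chr6:80018627-80018906, plus strand: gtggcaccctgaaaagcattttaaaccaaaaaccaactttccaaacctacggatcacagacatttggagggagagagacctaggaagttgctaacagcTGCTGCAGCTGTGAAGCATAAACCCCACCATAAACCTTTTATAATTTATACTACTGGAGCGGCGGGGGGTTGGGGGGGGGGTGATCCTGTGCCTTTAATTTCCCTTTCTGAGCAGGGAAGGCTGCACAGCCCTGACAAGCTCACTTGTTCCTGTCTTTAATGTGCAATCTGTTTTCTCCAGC
Lrrtm1 start, chr6:77242227-77242506, plus strand: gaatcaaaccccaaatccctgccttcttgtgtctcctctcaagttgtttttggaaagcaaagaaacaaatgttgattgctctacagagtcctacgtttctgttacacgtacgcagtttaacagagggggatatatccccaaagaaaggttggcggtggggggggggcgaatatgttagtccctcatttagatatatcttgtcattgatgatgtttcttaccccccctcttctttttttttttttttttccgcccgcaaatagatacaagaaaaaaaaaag
Nrxn3 most internal start, chr12:89812233-89812512, plus strand: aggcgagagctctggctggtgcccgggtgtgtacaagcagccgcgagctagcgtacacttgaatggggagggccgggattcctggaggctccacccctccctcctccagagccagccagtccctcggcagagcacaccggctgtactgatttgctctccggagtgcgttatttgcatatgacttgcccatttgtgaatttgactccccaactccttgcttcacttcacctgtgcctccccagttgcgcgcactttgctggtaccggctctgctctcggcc

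The windows under the peaks were not rich in G and C. GC content was 55.0% at the upstream Nlgn1 start, 43.6% at the internal Nlgn1 start and 48.2% and 52.5% at the first and second Lrrtm4 starts. The median was 65.0% over the 2502 protein-coding windows under a resting peak and 54.6% over the 18761 others. All 4 thus lay below the median of windows under a peak, at its 12.95, 1.12, 3.24 and 7.59 percentiles. The ratio of observed to expected CpG was 0.627, 0.456, 0.184 and 0.416 in the same order, against medians of 0.821 under a peak and 0.481 elsewhere. By contrast the Nlgn2 window, with 69.3% GC and 23 CpG, lay 33.3 kb from the nearest resting peak.

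Motifs were searched on both strands. The letters AGNGGGC, from the centre of the CTCF motif, were in 2 of the 10 member windows, against 28.5% of all protein-coding windows and 44.9% of those under a resting peak. They stood 99 bp before the upstream Nlgn1 start, outside the capitals, and at 2 places before the Nlgn2 start, where they overlap the GC box. These letters were chosen after a longer form of the CTCF motif had been searched and had matched none of the member windows. The cAMP response element TGACGTCA was in none of the 10 (2.19% of all windows). The GC box GGGCGG was at the Nlgn2 start, the Lrrtm1 start and the second Nrxn3 start (45.1% of all windows, 72.4% under a peak). The AP-1 motif TGANTCA was at that second Nrxn3 start (6.73%), and TATAAA at the first Lrrtm4 start (12.2%). The internal Nlgn1 window holds TTCAGCACC, the left-hand part of the RE1 element known from neuronal genes, 153 bp before the start and outside the capitals. That motif is in 0.367% of all windows and was added to the search after the sequence had been read. The right-hand part, GGACAG, was in 3 member windows (20.9% of all), at Lrrtm4, Nlgn2 and Nrxn3, and not at Nlgn1. The windows overlap no other member peak, so the sequence under the remaining peaks was not used here.

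**Figure D2:**
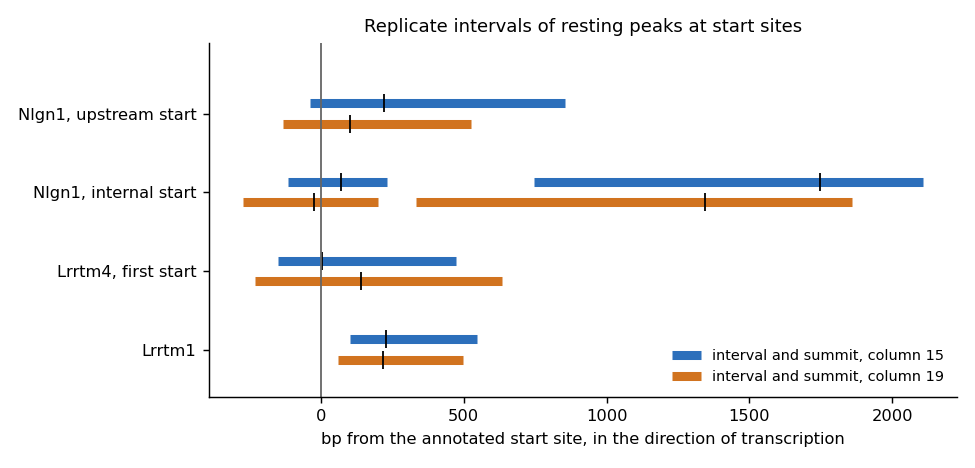
Horizontal bars are the intervals of the resting peaks in each replicate (column 15 blue, column 19 orange) by distance in bp from the annotated start, downstream to the right, and black ticks are the summits. A peak at each Nlgn1 start and the Lrrtm4 peak cross the start in both replicates. The adjoining Nlgn1 peak lies wholly downstream of the internal start, and the Lrrtm1 peak begins 59 bp after its start.

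Peak strength is given as the authors' −log10 p in each of the 2 resting replicates, held in columns 15 and 19 of the deposited list, and as their sum in column 8. It grows with sequencing depth, which is unknown here, so strength is ranked within the resting list only. The median sum was 26.0 over the 15 member peaks and 30.2 over all resting peaks. The members ranged from 18.5 to 41.6, their median lay at the 36.8 percentile of the list, and 6 of 15 exceeded the list median. An irreproducible discovery rate (IDR) up to 0.01 was met by 5 of the 15 (33.3%), against 56.9% of all resting peaks and 44.2% of those in the members' range of strength. The member peaks were thus mostly of low to middle rank.

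Nrxn3, a presynaptic neurexin gene, spans 1612 kb on chromosome 12 (88722701 to 90334935, plus strand) and is longer than 99.96% of protein-coding genes. Its strongest peak, at 89106122 to 89107002 inside the gene, had 20.6 in column 15 and 20.8 in column 19, a sum of 41.4. The peak at 88991837 to 88992548, also inside, had 20.6 and 14.02, a sum of 34.6. The peak at 88708791 to 88709634, 13.1 kb upstream of the gene body, had 18.2 and 19.8, a sum of 38.1. These 3 were above the list median and passed an IDR of 0.01. The others inside the gene were weaker, with 11.9 and 11.6 at 89302002 to 89302340 (sum 23.5) and 10.2 and 10.0 at 89395322 to 89395884 (sum 20.2). In 4 of the 5 the replicate values lay within 10% of each other, the exception being the peak at 88991837.

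None of the Nrxn3 peaks was at a start of the promoter table or at the 5′ end of the body, 88722701. The 3 RefSeq starts, at 88794504, 88953390 and 89812483, lay 84.6, 38.4 and 416 kb from the nearest resting peak, measured from the window. The 4 peaks inside the gene stood at 16.7, 23.8, 35.9 and 41.7% of its length from the 5′ end. The stretch after the last of them, 939 kb or 58.2% of the gene, held no peak and includes the most internal start. The nearest NMDA peak was 1250 kb away, at Snw1.

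Nlgn1, the neuroligin of excitatory synapses, spans 911 kb on chromosome 3 (25421808 to 26332866, minus strand). It had 4 peaks, 3 of them at or beside its starts. The peak at 26331056 to 26332043 covers the upstream start, with 11.1 in column 15 and 8.65 in column 19 (sum 19.7). It also overlaps the end of A830092H15Rik, a noncoding RNA gene, and cannot be assigned to either gene. At the internal start the peak at 26153756 to 26154259 had 10.8 and 14.05 (sum 24.9), with summits 70 bp after and 23 bp before the start. The adjoining peak at 26151877 to 26153654, the widest of the 15 at 1778 bp, had 11.04 and 7.44 (sum 18.5) and lay 332 to 2109 bp downstream. Peaks thus covered both Nlgn1 starts of the promoter table, all of them below the list median. The 5′ end of the body, 26332866, lay outside the peak at the upstream start. The strongest Nlgn1 peak was away from the starts, at 26002362 to 26003130, with 14.7 and 18.2 (sum 32.9, 56.9 percentile), 151 kb downstream of the internal start. The 3′ part of the gene, 581 kb or 63.7% of its length, held none, and the nearest NMDA peak was 1377 kb away.

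Nlgn2, the neuroligin of inhibitory synapses, is short (14.7 kb, chromosome 11, 69823123 to 69837784, minus strand) and lies among many genes. No peak was inside it. The peak at 69803437 to 69804421, over Tmem102 and the noncoding gene G630025P09Rik, had 29.9 in column 15 and 11.7 in column 19 (sum 41.6, the highest of the 15) and lay 18.7 kb from the gene. The peak at 69876836 to 69877258, inside Tmem95, had 26.5 and 7.47 (sum 34.0) and lay 39.1 kb from it. Both were far higher in 1 replicate than in the other, by 2.56 and 3.55 times, at the 96.8 and 99.5 percentiles of that ratio over the resting list (median 1.05). Their sums therefore rest mainly on the replicate of column 15.

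Nlgn3, a neuroligin gene of chromosome X (22.2 kb, 101299179 to 101321350), likewise had flank peaks only. The peak at 101329439 to 101330042, 8.09 kb from the gene and in no annotated gene, had 19.9 in column 15 and 9.67 in column 19 (sum 29.6). The peak at 101285550 to 101286079, inside the Mediator subunit gene Med12, had 8.26 and 13.3 (sum 21.5). The replicates thus ranked these peaks in opposite order. A resting peak within 50 kb was present at 15.7% of the 966 protein-coding genes of X, against 65.3% of 20665 autosomal genes, and resting peaks numbered 0.668 per Mb on X against 4.98 on the autosomes. An NMDA peak was within that distance of 0.932% of X-linked and 17.8% of autosomal genes. Nlgn3 was among the minority of X-linked genes with a peak nearby.

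**Figure D3:**
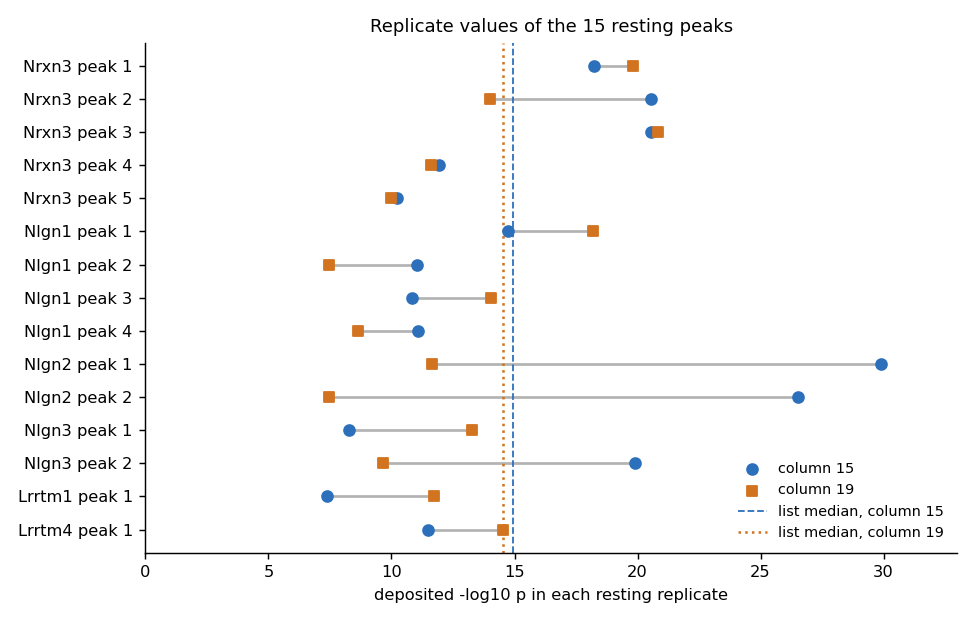
Points are the deposited −log10 p of each of the 15 resting peaks in each replicate (column 15 blue circles, column 19 orange squares), with peaks numbered by position on the chromosome and the medians of the whole resting list as vertical lines. The longest gaps between replicates are those of the 2 Nlgn2 peaks, and 13 of the 15 peaks have at least 1 value below its median line.

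The LRRTM genes encode postsynaptic neurexin receptors, and 3 of the 4 lie within the bodies of alpha-catenin genes, which link cadherins to actin: Lrrtm1 in Ctnna2, Lrrtm2 in Ctnna1 and Lrrtm3 in Ctnna3. Lrrtm1 (30.7 kb, chromosome 6, 77229210 to 77259915, plus strand) had 1 peak at 77242536 to 77243022, with 7.40 in column 15 and 11.7 in column 19 (sum 19.1, 7.44 percentile). Its summits lay 229 and 216 bp after the Lrrtm1 start of the promoter table, 77242477. That start is inside the gene body, and the peak stood at 44.2% of the body's length from its 5′ end. The only other resting peak within 50 kb of the 1098 kb Ctnna2 gene was at the Ctnna2 start (sum 26.7). Lrrtm4 (791 kb, chromosome 6, 80018858 to 80810162, plus strand) also had 1, at 80018646 to 80019510, with 11.5 and 14.5 (sum 26.0). Its summits lay 5 and 140 bp after the first start, and the other 99.9% of the gene, 791 kb, held no peak. Both LRRTM peaks thus lay at or just after a start of the promoter table, which for Lrrtm1 is not the 5′ end of the body.

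Lrrtm2 (6.02 kb, chromosome 18, 35209003 to 35215024) and Lrrtm3 (162 kb, chromosome 10, 63928497 to 64090255, minus strand) had no peak. The resting peak nearest to Lrrtm2 was 89.2 kb away, at an end of its host Ctnna1, with 11.2 in column 15 and 18.3 in column 19 (sum 29.5). It was overlapped by an NMDA peak with 10.9 and 11.2 (sum 22.1). For Lrrtm3 the nearest was 345 kb away inside the 1574 kb Ctnna3 gene (sum 21.2), and the nearest NMDA peak was 498 kb away at the Ctnna3 start and a transfer RNA gene (sum 25.6). All 3 host genes had a resting peak, and Ctnna1 and Ctnna3 also an NMDA peak that lay outside the window of the nested LRRTM gene.

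Nrxn2, the other neurexin gene examined (114 kb, chromosome 19, 6418756 to 6533217), had no peak in its body or flanks. The nearest sites of both lists were 277 kb away at the same place, over Arl2, with a resting sum of 16.9 and an NMDA sum of 21.3. The 3 genes without a resting peak thus differ in length from 6.02 to 162 kb, and in distance to the nearest resting peak from 89.2 to 345 kb.

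Peak number was next set beside gene length, since longer windows hold more peaks. The 9 members together had 0.329 resting peaks per 100 kb of window, against 0.823 over all protein-coding genes, 0.565 over the 2429 genes of at least 100 kb and 0.289 over the 227 of at least 500 kb. Inside gene bodies the values were 0.273 for the members, 0.719, 0.485 and 0.268. The summed member value is set mainly by Nrxn3, Nlgn1 and Lrrtm4, and lay close to that of other genes of their length.

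Single members differed more. Nrxn3 had 0.292 peaks per 100 kb of window and Nlgn1 0.396, and their counts of 5 and 4 exceeded the medians of 3 and 2 for protein-coding genes of 1000 kb or more (n = 59) and of 316 to 1000 kb (n = 459). Lrrtm4, in that second class, had 0.112 per 100 kb and 1 peak. Nrxn2 and Lrrtm3 had 0, where the median of 1911 genes of 100 to 316 kb was 2 and 81.0% had at least 1. Nlgn2 and Nlgn3 had the highest density, 1.74 and 1.64 per 100 kb of window, and 0 inside the body. Lrrtm1 had 0.765 per 100 kb of window. No test was made of these differences, and all counts come from 1 list.

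**Figure D4:**
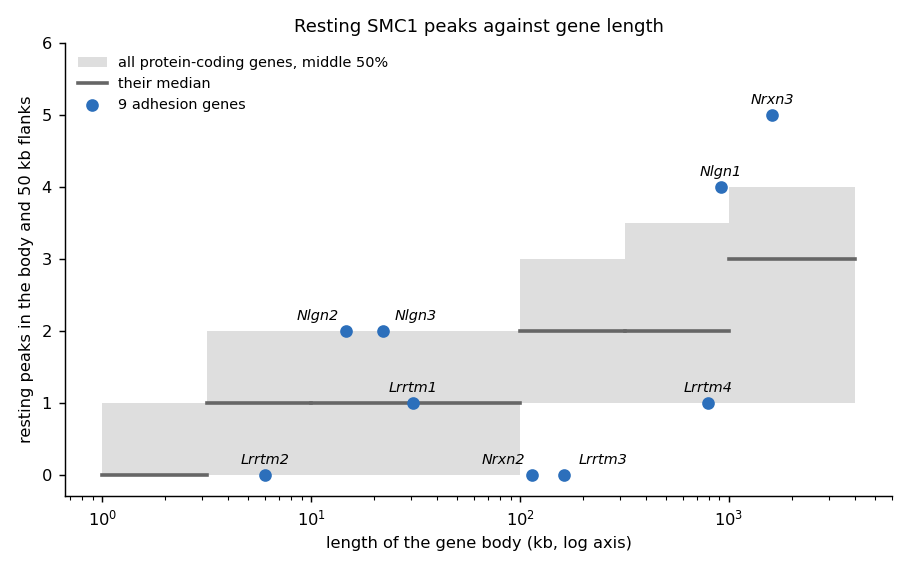
Blue points are the resting peaks in the body and 50 kb flanks of each of the 9 genes against the length of its body in kb (log axis), with the middle 50% (grey) and the median (dark line) of all protein-coding genes in each class of length. Nrxn3 and Nlgn1 lie above the grey band of their class, and Nrxn2 and Lrrtm3 below it.

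Inside the long members with a known strand the peaks lay on the 5′ side. All 9 peaks inside Nrxn3, Nlgn1 and Lrrtm4 had their midpoint in the first 50% of the gene, against 55.8% of 2207 resting peaks inside protein-coding genes of at least 100 kb. These 9 come from 3 genes, and 4 of them are at starts or beside one, so they are not independent of each other.

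Genes with the most similar pattern were sought among those whose length was within 10% of the member's, by the distance between their resting and NMDA peaks per 100 kb of window. For Nrxn3 they were Csmd1 (4 resting peaks, distance 0.0625) and Magi2 (3, distance 0.103), out of 8 genes. For Nlgn1 they were Wwox and Etl4 (4 each, distances 0.0008 and 0.0042), and for Lrrtm4 Npas3 and Negr1 (1 each, distances 0.0040 and 0.0048), each out of 35 genes. For Lrrtm1 they were Hebp1 and Ccnt2 (1 each), out of 1127. The distance counts NMDA peaks, so these 8 genes were chosen for having none. Among all candidates of similar length, 25% for Nrxn3, 20% for Nlgn1, 17.7% for Lrrtm1 and 31.4% for Lrrtm4 had an NMDA peak. The likeness rests on 2 conditions with 1 list each.

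The NMDA list held no SMC1 peak within 50 kb of any member. An NMDA peak overlapped 0 of the 15 resting member peaks (interval 0 to 21.8%), against 10.7% of all resting peaks and 7.08% of the 8518 resting peaks in the members' range of strength. Both shares lie inside the interval. It treats the 15 peaks as independent, but they come from 6 genes and 2 of the Nlgn1 peaks adjoin, so it may be too narrow. The nearest NMDA peaks were 83.6 kb from Nlgn2, at Eif5a, and 89.4 kb from Lrrtm2, and those of the other members were 277 to 5131 kb away, the farthest being that of Lrrtm1. The NMDA list is much shorter as a whole, and a peak that is not in it may have been bound and missed the authors' limits, so loss of SMC1 at these genes was not shown.

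Other trans-synaptic adhesion genes had peaks in both lists. Of 58, a resting peak lay within 50 kb of 49 (84.5%), where the share over all protein-coding genes was 62.4%. The NMDA list had a peak near 13 (22.4%, against 16.9%). The median number of resting peaks was 2, and 1 for the 9 members and for all protein-coding genes. Many of these genes are long, and the lists were not compared by a test. The sums below are of the strongest peak in the body or 50 kb flanks of each gene. For Nxph3, Nxph4, Lrfn1, Ntng2, Cadm4 and Lin7c no resting peak lay inside the gene. The NMDA peaks of Ntng2, Cadm4 and Shank1 were also in a flank. That of Shank1 lies within the strongest resting peak of the gene, so the resting sum given for Shank1 belongs to the same place.

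Among ligands of neurexins, the delta glutamate receptors and the Mdga genes, 18 of 22 had a resting peak and 4 an NMDA peak. The resting share was 81.8%, against 62.4% of all protein-coding genes. The strongest resting sites had sums of 77.7 in a flank of the neurexophilin gene Nxph3 and 56.2 in a flank of Nxph4. Mdga1, whose product binds neuroligins, had 55.2 in its body or flanks. Cbln1, which bridges neurexins and delta receptors, had 47.5 at rest and an overlapping NMDA peak of 20.2. Mdga2 had 45.7 and 21.6. The 4 genes with an NMDA peak are 18.2% of this group, close to the 16.9% of all protein-coding genes.

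Of the latrophilin, FLRT and teneurin genes 9 of 10 had a resting peak and 4 an NMDA peak (90% and 40%). The shares over all protein-coding genes were 62.4% and 16.9%, and many genes of this group are long. The teneurin gene Tenm4 had 76.4 at rest and 24.5 after NMDA, the latrophilin gene Adgrl2 63.6 and 36.7, and Flrt3 45.5 and 25.4. Flrt1 had 66.0 and no NMDA peak. Tenm2 had 54.6 at its strongest resting peak and 21.0 after NMDA, where the NMDA peak overlaps another, weaker resting peak of the gene. The next group held receptor phosphatases and the Slitrk, Lrfn, Lrrc4, netrin-G (Ntng), Il1rapl1, Il1rap and Ntrk3 genes. Not all of these are phosphatase ligands. Its counts were 18 of 22 at rest and 3 after NMDA (81.8% and 13.6%, against 62.4% and 16.9% of all protein-coding genes). The 3 were Lrfn2 (80.6 and 35.2), Ntng2 (28.8 and 24.6) and Ptprs (37.8 and 19.1, at different places). Ptprf (56.1) and Lrfn1 (53.6) had resting peaks only. All 4 Cadm genes had a resting peak and 2 an NMDA peak, in a group too small to be read against the shares of all genes. Cadm1 had 68.6 and 54.8, and Cadm4 30.2 and 23.1 at different places, while Cadm3 had 25.8 at rest alone.

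Partners inside the cell numbered 17, of which 15 had a resting and 6 an NMDA peak (88.2% and 35.3%). The shares over all protein-coding genes were 62.4% and 16.9%. Many of these partner genes are long too, and no test was made. The postsynaptic scaffold gene Shank2 had the strongest resting site, 123, and no NMDA peak, and Lin7c had 67.0 and none. Apba2, which encodes a Mint adaptor that binds neurexins, had 61.0 at rest and 41.9 after NMDA. Magi1 had 46.4 and 35.96, Apba1 50.9 and 27.4, Shank1 38.7 and 23.2, and Gphn, the scaffold of inhibitory synapses, 23.0 and 22.8. The Gphn NMDA peak overlaps the other, weaker resting peak of the gene. Cask, which binds the tails of neurexins, had 19.1 and 21.3 at different places. As elsewhere, sums of the lists stand side by side and are not compared, since depth is unknown.

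**Figure D5:**
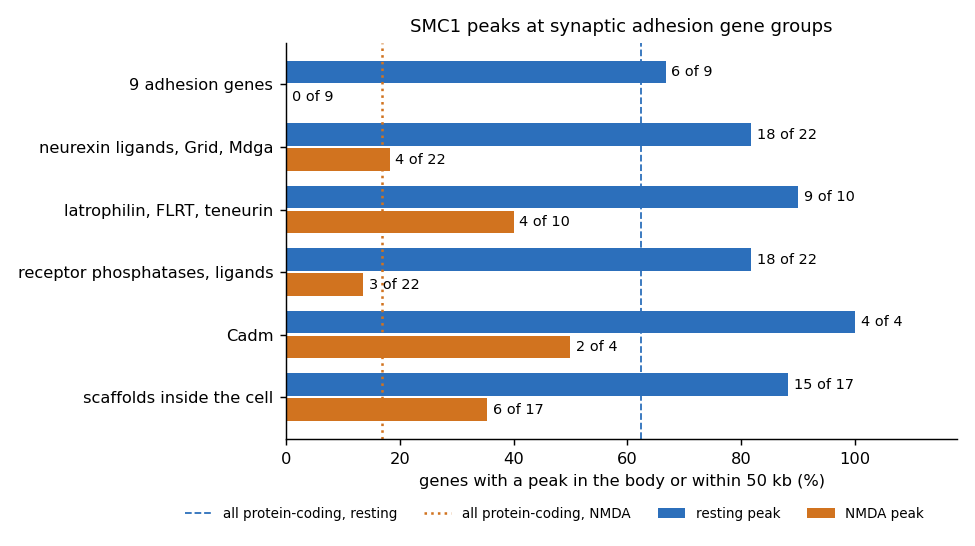
Bars give the percent of genes with a resting (blue) or NMDA (orange) peak in the body or within 50 kb, with counts beside them, for the 9 members, 4 groups of other adhesion genes and the scaffolds, and vertical lines give the share of all protein-coding genes. The 9 members stand at 6 of 9 and 0 of 9. The bars labelled receptor phosphatases, ligands also hold netrin-G, Lrfn and Lrrc4 genes, not all of them phosphatase ligands.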

How the data were processed

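SMC1 ChIP-seq of resting and NMDA-treated cortical neurons was analysed from 1 deposited peak list per condition; input libraries were not used. Per the submitters' processing notes, the builds were mm10 and GRCm38.p6 and the tools MACS2, BWA, SAMtools, Trimmomatic and FastQC, with no versions. Settings were not given in the sources used here. In the lists that the authors deposited there are 20 columns without a header, laid out as the IDR tool does: the global IDR as −log10 (limit 0.05), the −log10 p of each replicate (columns 15 and 19, with no replicate number) and their sum (column 8). No fold enrichment is given. Depth is unknown.

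Genes came from RefSeq GRCm38.p6 (gene positions without exons, and promoter windows with strand for 6 of 9 members), so exon and intron were not separated. A peak belonged to a gene with at least 1 bp in the body or its 50 kb flanks, and peaks were shared with at least 1 bp of overlap. Python 3.11.15, pandas 2.3.3 and SciPy 1.17.1 were used, and counting was tested on simulated data. Intervals are Clopper-Pearson 95% and cover counting error only. No test between conditions was made, since 2 against 2 values cannot go below an exact p of 0.33 and depths are unknown.

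All 9 members are named. Of the other lists (58 adhesion genes, 17 partners, 3 alpha-catenins), the 3 genes of each group with the strongest resting peak and up to 12 with an NMDA peak are named, except where a result is not reported here. Members and lists were chosen with earlier results of these data known. Alternatives were the window, the IDR limit, the overlap, the placing of peaks by midpoint and the strength column.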

Additional observations from a re-analysis of the deposited data

How the results depend on the processing

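The resting count of 15 peaks was 10 inside gene bodies, 11 within 10 kb, 20 within 100 kb and 15 by peak midpoint. At an IDR up to 0.01 it was 5, at 3 members (Nrxn3, Nlgn1 and Nlgn2) in place of 6. Members with a resting peak numbered 4 with bodies only and 5 within 10 kb. The NMDA count stayed 0 in bodies, within 10 kb, by midpoint and at an IDR up to 0.01, and was 2 within 100 kb, 1 each for Nlgn2 and Lrrtm2. No member peak was shared with 50% overlap, with an NMDA peak within 5 kb, or with the resting list at an IDR up to 0.01. The median strength percentile of 36.8 was 30.8 with column 15 alone and 32.5 with column 19 alone. The members' summed density of 0.329 per 100 kb was 0.273 in bodies, where Nlgn2 and Nlgn3 had 0 and Lrrtm1 3.26. Other adhesion genes with a peak numbered 34 and 45 of 58 at rest, and 10 and 13 after NMDA, for bodies and 10 kb. Over all protein-coding genes the shares in the same windows were 25.4% and 38.2% at rest, and 6.57% and 8.94% after NMDA. For an IDR up to 0.01 and for 100 kb no such share is given. No paired analysis was possible because the replicate columns carry no numbers and no test was made. Replicates could not be left out, since each list needs both. Depth is unknown, which limits what an absent peak shows.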

Other observations

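Few genes of chromosome X had a resting SMC1 peak within 50 kb, 15.7% of the 966 protein-coding genes against 65.3% on the autosomes. Of the 58 other adhesion genes, the 5 on X, the glypican gene Gpc4, the teneurin gene Tenm1, Slitrk2, Slitrk4 and Il1rapl1, had none, out of 9 genes without a peak in the list. With 5 genes, this count is not told apart from the share of all X-linked genes. The other 4 were Cbln4, C1ql2, Nxph2 and Lrfn5. Among the partners on X, Cask had a resting peak and Dlg3 had none. The NMDA list held 5 peaks on X in all, 0.0293 per Mb, against 0.682 per Mb on the autosomes. The sex of the embryos is not given in the labels, and its part in these values was not tested.

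Peaks do not measure expression, so the labelled cell type could not be checked by its markers. Within 50 kb, a resting peak was present at 2 of 5 pan-neuronal genes (Rbfox3 and Snap25), 3 of 4 astrocyte, 4 of 4 oligodendrocyte lineage, 3 of 3 microglial and 2 of 2 endothelial genes. An NMDA peak lay near 0, 0, 4, 1 and 0 of them, with Olig1 and Olig2 sharing 1 peak. Over all protein-coding genes the shares are 62.4% at rest and 16.9% after NMDA, and the marker lists are too short to be read against them.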
